A study of Mus musculus with 42 samples.

Results

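The developmental pluripotency associated (Dppa) genes Dppa2, Dppa3, Dppa4 and Dppa5a were followed through the differentiation of mouse embryonic stem cells (mESCs) into anterior definitive endoderm (ADE). A gene was read through the probes that carry its RefSeq accession, and where several did so the probe with the highest mean over all 42 arrays was used. This gave 4 of the 22278 genes with a probe, measured by 7 probes. All cells came from 1 mESC line, HRS/Gsc-GFP, which carries RedStar in Hhex and GFP in Gsc, so no group lacks the reporters. The untreated series held ESCs grown with LIF, unsorted d2 cells, and cells sorted on d3 and d4 into GSC negative (G-) and positive (G+), on d5 into G-, Glow and Ghigh, and on d6 into G+H- and G+H+ by the HHEX reporter. In the second series d6 ADE cells had received DMSO throughout (Control), DMSO and then 2.5 µM EPZ6438 during differentiation (ADE_EPZ), or EPZ6438 as ESCs and then DMSO (ES_EPZ). EPZ6438 inhibits EZH2, the catalytic subunit of the Polycomb complex PRC2. Each of the 14 groups had 3 arrays, from separate experiments by the series' design, and the labels name no sort for the EPZ6438 series. The study's methods speak of RNA from sorted ADE cells without naming that series, so whether its cells were sorted is not known here.

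The Dppa genes share a name because they are expressed with the pluripotency network, and apart from Dppa2 and Dppa4, which are related, they do not form a family by sequence. Dppa2 and Dppa4 encode SAP domain proteins that bind each other, sit on CpG-rich promoters, help keep developmental genes open to later activation, and switch on genes of the cleavage stage embryo. Dppa3 (Stella, PGC7) is a maternal factor that protects the zygotic genome from loss of DNA methylation, interferes with the maintenance methylation factor UHRF1, marks primordial germ cells and is expressed unevenly between cells of an ESC culture. Dppa5a (Esg1) encodes a KH domain protein that binds RNA.

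The arrays measured 1 colour, and levels are deposited log2 normalised intensities, so a difference of 1 is a doubling of the signal. Of 55681 probes, between 25883 and 40392 were well above background on an untreated array and between 24454 and 34784 on an array of the EPZ6438 series. The untreated arrays lay on 5 slides and the EPZ6438 arrays on 3 others, so slide and series cannot be told apart and levels were compared only within a series. The mean level of 7 pluripotency markers (Pou5f1, Nanog, Sox2, Esrrb, Zfp42, Klf4, Utf1) lay between 12.78 and 13.46 in ESCs and between 7.65 and 7.94 in d6 G+H+ cells, and that of 9 mesendoderm and endoderm markers rose from between 5.84 and 5.93 to between 12.87 and 13.10. In bulk RNA, fewer cells that express a gene and less RNA per cell cannot be told apart, and this holds for every level below. Genes were called as changed at an adjusted p of at most 0.01 (limma, Benjamini-Hochberg over all probes) and a log2 fold change of at least 1.5.

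Dppa2 was read by 2 probes, Dppa4 by 3, and Dppa3 and Dppa5a by 1 each. The probe used was well above background on 31 of 42 arrays for Dppa2, 32 for Dppa3, 39 for Dppa4 and all 42 for Dppa5a, and no array saturated it. The RefSeq table also lists the pseudogenes Dppa5b, Dppa5c and Dppa3-ps, and whether their transcripts reach the Dppa5a and Dppa3 probes is uncertain.

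All 4 genes were lower in d6 G+H+ cells than in ESCs. Among all genes tested 5.16% were called lower in this comparison. Dppa2, with no d6 G+H+ array well above background, was at least 100-fold lower (means 4.48 and 11.62, adjusted p = 2.73e-21). On the log2 scale Dppa4 fell by 6.53 (SE 0.27, adjusted p = 1.24e-18), Dppa5a fell by 5.73 (SE 0.42, adjusted p = 5.96e-13) and Dppa3 fell by 3.97 (SE 0.57, adjusted p = 1.01e-06). Their levels in the intermediate populations are given gene by gene. All comparisons with ESCs share the same 3 ESC arrays.

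**Figure D1:**
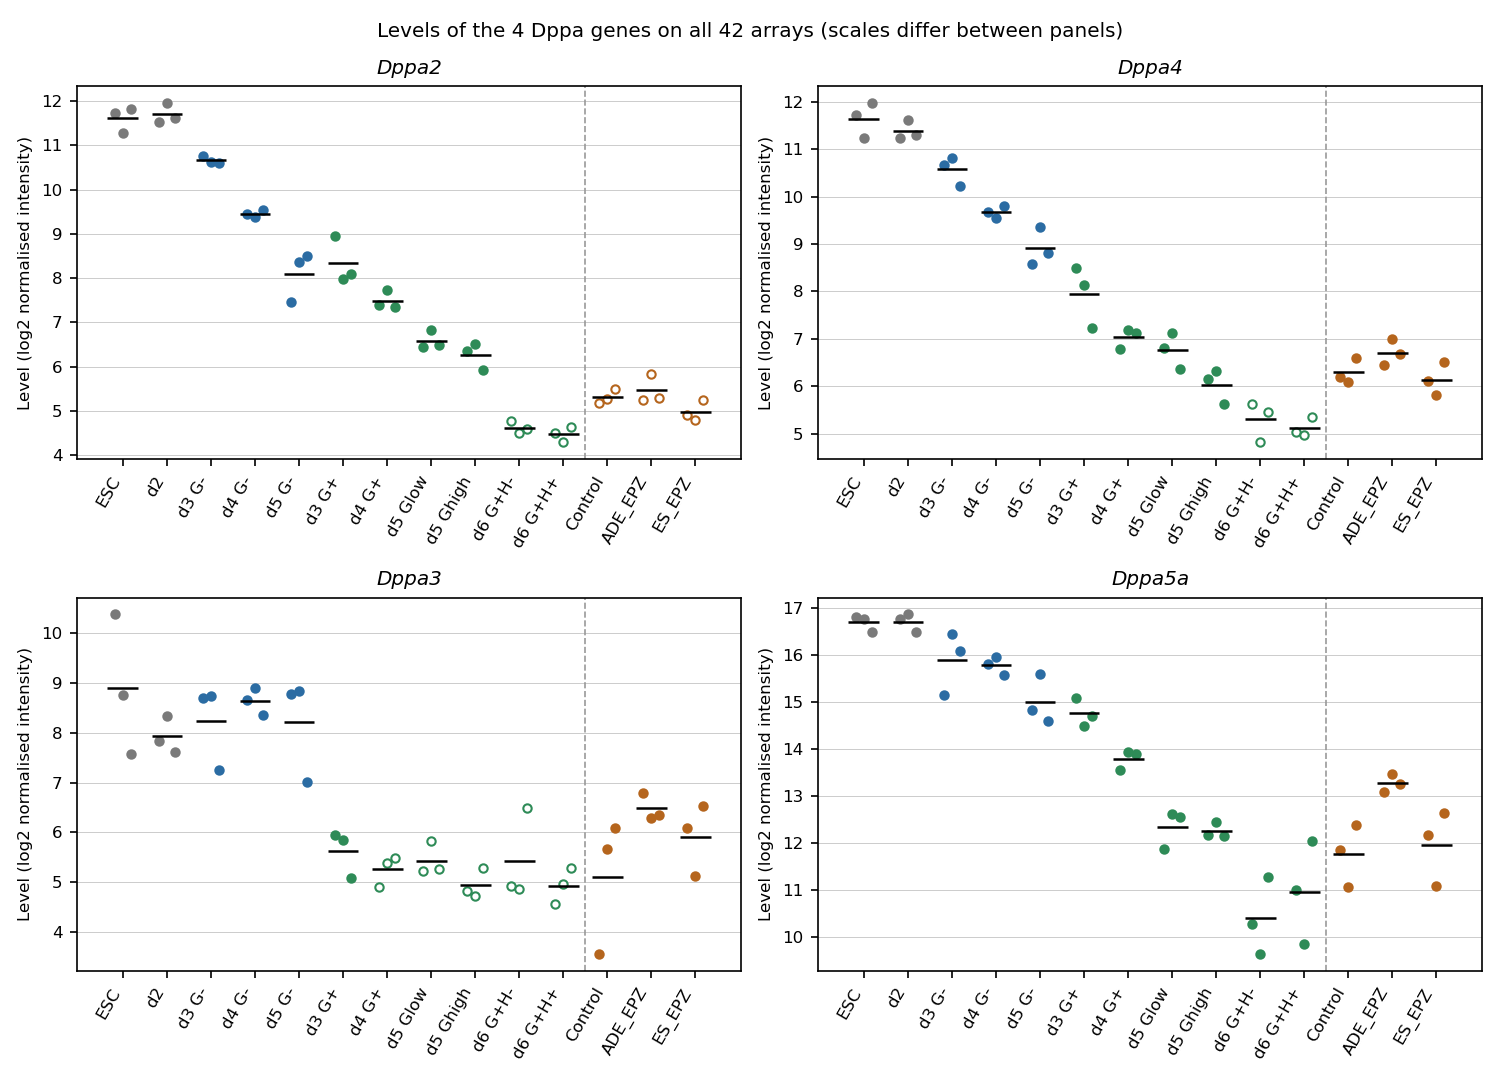
Level (log2 normalised intensity) of each Dppa gene on all 42 arrays, with 1 point per array and a bar for the mean of the 3 arrays of a group. Grey is ESC and d2, blue G-, green the GSC-positive populations, and brown the EPZ6438 series to the right of the dashed line. Open points mark groups in which fewer than 3 arrays had the probe well above background. Dppa2, Dppa4 and Dppa5a lie lower on later days and lower in G+ than in G- cells, whereas Dppa3 lies between 7.02 and 10.37 in ESC, d2 and G- cells and between 4.56 and 6.49 in the GSC-positive populations.

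Dppa2, the SAP domain partner of Dppa4, stood at 11.74, 11.29 and 11.83 in the 3 ESC arrays and at 11.54, 11.96 and 11.63 at d2. In G- cells it read 10.75, 10.63 and 10.60 on d3, 9.44, 9.38 and 9.55 on d4, and 7.46, 8.36 and 8.49 on d5. ESC and d2 overlapped, and each later G- population lay wholly below the one before it. Dppa2 was called in neither single step between G- populations, both under the size threshold. It differed by -1.20 from d3 to d4 (SE 0.23, adjusted p = 0.0208) and by -1.35 from d4 to d5 (SE 0.23, adjusted p = 0.0086). In G+ cells it read 8.96, 7.99 and 8.10 on d3 and 7.40, 7.73 and 7.34 on d4. The d5 arrays gave 6.45, 6.82 and 6.48 for Glow and 6.34, 6.51 and 5.93 for Ghigh. On d6 it read 4.76, 4.50 and 4.59 in G+H- cells and 4.50, 4.29 and 4.64 in G+H+ cells. The d6 populations formed the floor of the series, did not overlap with any earlier population, and overlapped with each other. No d6 array of the untreated series had the Dppa2 probe well above background, so its fall has only a lower bound. Set against the dimmest signal called well above background on each array, Dppa2 was at least 111-fold lower in G+H- cells and at least 100-fold lower in G+H+ cells than in ESCs. Against ESCs, d2 differed by 0.09 (SE 0.23, adjusted p = 0.986) and d3 G- by -0.96 (SE 0.23, adjusted p = 0.00486), short of the size threshold. In d4 G- cells it fell by 2.16 (SE 0.23, adjusted p = 1.87e-08) and in d5 G- cells it fell by 3.52 (SE 0.23, adjusted p = 2.48e-13), beside d3 G+ cells, where it fell by 3.27 (SE 0.23, adjusted p = 6.96e-13).

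Dppa4, encoded next to Dppa2, followed almost the same course. It read 11.72, 11.25 and 11.98 in ESCs and 11.23, 11.62 and 11.31 at d2. In G- cells it read 10.68, 10.82 and 10.22 on d3, 9.68, 9.55 and 9.81 on d4, and 8.59, 9.37 and 8.81 on d5. ESC and d2 again overlapped, and the ranges of the G- populations again separated day by day. Dppa4 was called in neither single step between them. It differed by -0.90 from d3 to d4 (SE 0.27, adjusted p = 0.431) and by -0.76 from d4 to d5 (SE 0.27, adjusted p = 0.377). In G+ cells it read 8.49, 8.13 and 7.23 on d3 and 6.78, 7.19 and 7.12 on d4. The Glow arrays of d5 gave 6.81, 7.12 and 6.36 and the Ghigh arrays 6.16, 6.32 and 5.62. On d6 it read 5.63, 4.82 and 5.45 in G+H- cells and 5.03, 4.97 and 5.35 in G+H+ cells. By the probe used, all GSC-positive arrays lay below all G- arrays, the highest of the former at 8.49 and the lowest of the latter at 8.59. The other Dppa4 probes did not show this separation. By the next in brightness d3 G+ cells reached 8.40 and d5 G- cells went down to 8.14, and by the dimmest 5.66 and 5.15. Dppa2 did not show it either, since its d5 G- cells overlapped with d3 G+ cells. The Dppa4 probe used was well above background on 2 of 3 arrays in G+H- cells and on 1 of 3 in G+H+ cells. Against ESCs d3 G- cells differed by -1.08 (SE 0.27, adjusted p = 0.00827), under the size threshold, while Dppa4 fell by 1.97 in d4 G- cells (SE 0.27, adjusted p = 2.76e-06) and fell by 2.73 in d5 G- cells (SE 0.27, adjusted p = 3.62e-09). Across the means of the 11 untreated populations the levels of Dppa2 and Dppa4 correlated with r = 0.986, which is given as a description, since the populations share slides and were normalised together.

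Dppa3, the maternal factor, was not called lower in G- cells on any day. In ESCs it was the most variable of the 4, at 10.37, 8.76 and 7.58, and at d2 it read 7.84, 8.33 and 7.62. In G- cells it read 8.69, 8.74 and 7.26 on d3, 8.66, 8.90 and 8.36 on d4, and 8.78, 8.84 and 7.02 on d5. The 3 G- populations overlapped with each other, with d2 (except d4 G-, whose lowest array was above the highest of d2) and with ESCs. In GSC-positive cells it read 5.95, 5.85 and 5.08 on d3, 4.90, 5.38 and 5.49 on d4, 5.22, 5.82 and 5.26 for d5 Glow and 4.83, 4.73 and 5.28 for d5 Ghigh. On d6 it read 4.93, 4.87 and 6.49 in G+H- cells and 4.56, 4.97 and 5.28 in G+H+ cells. The populations therefore fell into a high and a low set with no array between 6.49 and 7.02, and the 6 populations of the low set overlapped along their order. In the low set 8 of 18 arrays had the probe well above background, all 3 of them in d3 G+ cells and 1 of 3 in each later population. Against ESCs, G- cells differed by -0.68 on d3 (SE 0.57, adjusted p = 0.642), -0.26 on d4 (SE 0.57, adjusted p = 0.969) and -0.69 on d5 (SE 0.57, adjusted p = 0.64), none of which passed. The ESC arrays spread widely, and without ESC replicate 1 the 3 differences became 0.06, 0.47 and 0.04. In d3 G+ cells Dppa3 fell by 3.28 (SE 0.57, adjusted p = 4.46e-05).

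Dppa5a, the KH domain gene, was the only member well above background on every array. It read 16.80, 16.76 and 16.49 in ESCs and 16.77, 16.86 and 16.48 at d2. In G- cells it read 15.15, 16.45 and 16.09 on d3, 15.81, 15.95 and 15.58 on d4, and 14.83, 15.59 and 14.59 on d5. ESC and d2 overlapped, and so did the neighbouring G- populations. In G+ cells it read 15.09, 14.49 and 14.70 on d3 and 13.55, 13.93 and 13.88 on d4. The Glow arrays of d5 gave 11.86, 12.61 and 12.55 and the Ghigh arrays 12.16, 12.45 and 12.15. On d6 it read 10.28, 9.64 and 11.28 in G+H- cells and 11, 9.84 and 12.03 in G+H+ cells. From d3 G+ to d5 the GSC-positive populations separated by day, while Glow and Ghigh overlapped, as did the d6 pair. Against ESCs it fell by 1.68 in d5 G- cells (SE 0.42, adjusted p = 0.00472). This call was lost with slide as a fixed block (-1.72, adjusted p = 0.0143) and when any ESC array, d5 G- replicate 1 or d5 G- replicate 3 was left out, with log2 fold changes between -1.78 and -1.48.

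**Figure D2:**
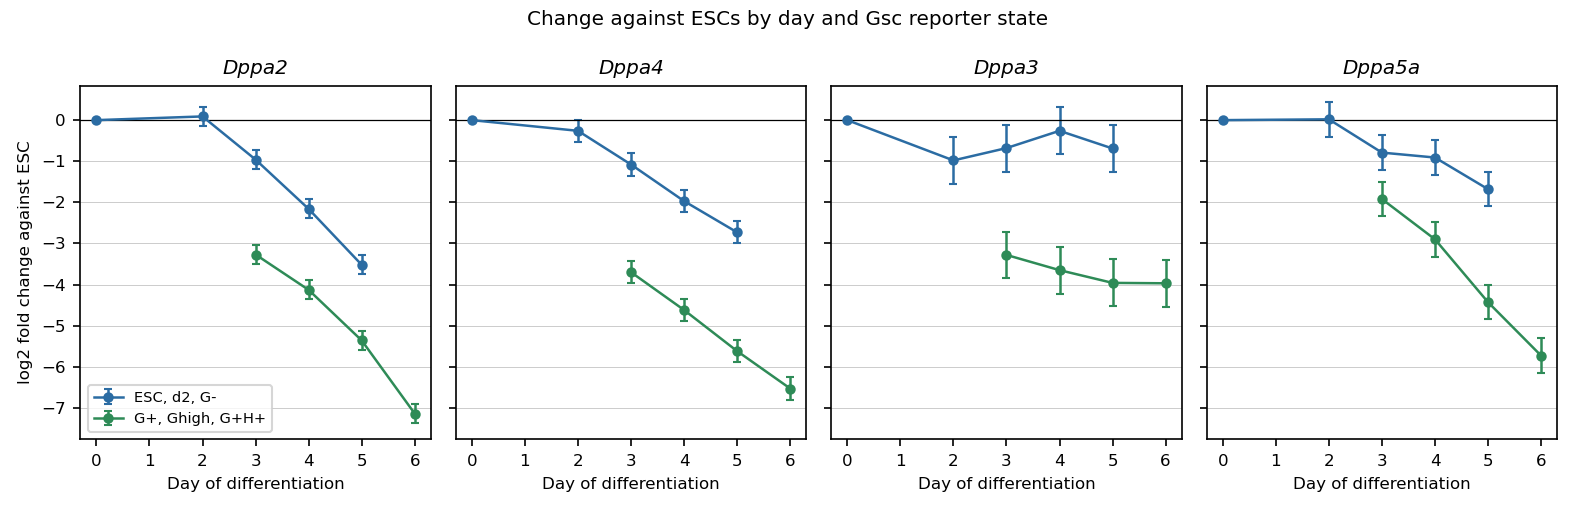
log2 fold change against ESCs (y axis) by day of differentiation (x axis) for ESC, d2 and G- cells in blue and for d3 G+, d4 G+, d5 Ghigh and d6 G+H+ cells in green, with bars for the SE of the limma fit. From d2 on the blue line falls day by day for Dppa2, reaching -3.52, and for Dppa4, reaching -2.73, but stays between -0.98 and 0 for Dppa3, while the green line of Dppa5a starts at -1.92 on d3 and ends at -5.73.

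Counted over the members, none was called in d2 cells, with 1.3% of all genes called lower there, or in d3 G- cells, with 1.25% called lower. At an unadjusted p under 0.05 the limma counts were 0 of 4 and 2 of 4. In d3 G+ cells all 4 were lower, with 3.58% of all genes called lower. In d4 G- cells Dppa2 and Dppa4 were lower (1.69% of all genes), and in d5 G- cells Dppa2, Dppa4 and Dppa5a were (2.13%). All 4 were lower in d4 G+ (4.23%), d5 Glow (4.1%), d5 Ghigh (4.4%) and d6 G+H- cells (4.94%). As single steps, no member was called from d2 to d3 G-, d3 to d4 G- or d4 to d5 G- cells. Of all genes 0.278%, 0.00898% and 0% were called lower there. At an unadjusted limma p under 0.05 there were 2 of 4 members in each of these steps.

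The sort into G+ and G- cells asks how each gene differs between cells that do and do not express GSC on the same day. Gsc itself was used to choose the cells and is no finding. On d3 Dppa2, Dppa3 and Dppa4 were lower in G+ cells, 3 of 4 members against 1.07% of all genes. Dppa4 fell by 2.62 (SE 0.27, adjusted p = 5.52e-08), Dppa2 fell by 2.31 (SE 0.23, adjusted p = 2.23e-08) and Dppa3 fell by 2.60 (SE 0.57, adjusted p = 0.00369), and in each case every G+ array lay below every G- array. Dppa5a differed by -1.13 (SE 0.42, adjusted p = 0.157) and was not called. Its d3 values are those given above, and the highest G+ array (15.09) was just under the lowest G- array (15.15). The Dppa3 call did not survive the loss of single arrays. Without d3 G- replicate 1, d3 G- replicate 2, d3 G+ replicate 2 or d3 G+ replicate 3 the log2 fold change lay between -2.71 and -2.33 with adjusted p up to 0.0372, and a fit on the 6 compared arrays alone gave an adjusted p of 0.0175.

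On d4 all 4 members were lower in G+ cells, with 1.41% of all genes called lower. Dppa3 fell by 3.38 (SE 0.57, adjusted p = 0.000167), Dppa4 fell by 2.65 (SE 0.27, adjusted p = 9.3e-08), Dppa5a fell by 1.99 (SE 0.42, adjusted p = 0.00222) and Dppa2 fell by 1.96 (SE 0.23, adjusted p = 7.46e-07). The ranges of G+ and G- arrays did not overlap for any of them. The Dppa2 call was lost under 75th percentile scaling (-2.12, adjusted p = 0.0102). The Dppa5a call was lost without d4 G- replicate 1 (-1.98), d4 G- replicate 2 (-1.91) or d4 G+ replicate 1 (-1.87).

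On d5 the mean of Glow and Ghigh cells was set against G- cells, and all 4 members were lower, with 1.11% of all genes called lower. Dppa3 fell by 3.02 (SE 0.49, adjusted p = 0.000112), Dppa5a fell by 2.71 (SE 0.36, adjusted p = 5.91e-06), Dppa4 fell by 2.52 (SE 0.24, adjusted p = 1.5e-08) and Dppa2 fell by 1.68 (SE 0.20, adjusted p = 8.14e-07). Again no Glow or Ghigh array reached the lowest G- array of any member. The Dppa2 difference lay close to the size threshold and was -1.49 without d5 G- replicate 3, and its dimmer probe gave -0.97 (SE 0.21, adjusted p = 0.00248). Within single slides that held both G+ and G- cells, the G+ minus G- difference was below 0 for every member on d3, at 2 slides between -2.98 for Dppa4 and -1.38 for Dppa5a, and on d4, at 2 slides between -4.01 for Dppa3 and -1.71 for Dppa2. The d3 arrays of replicate 1 shared no slide, and between them Dppa5a differed by only -0.06.

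**Figure D3:**
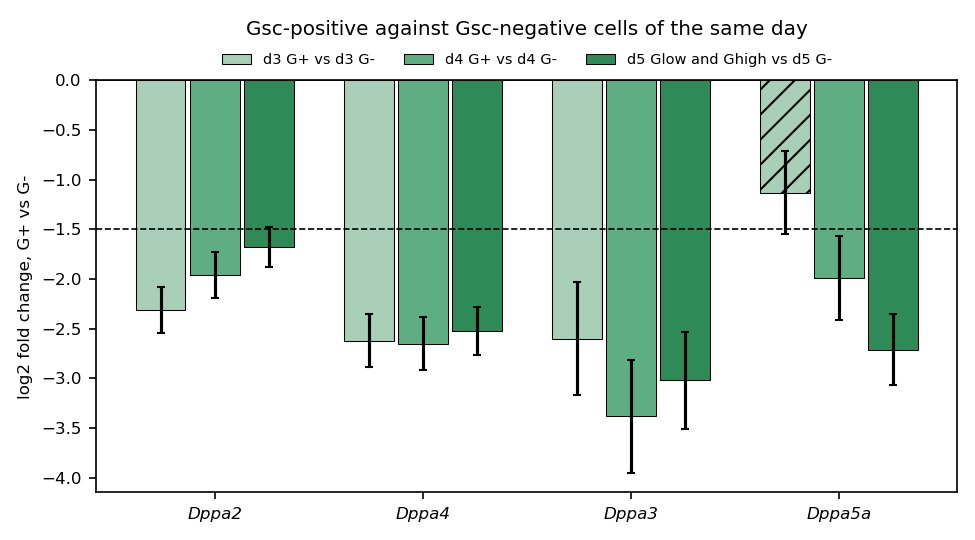
log2 fold change of G+ against G- cells of the same day for each member, with d3 in pale, d4 in mid and d5 (mean of Glow and Ghigh) in dark green, and bars for the SE of the limma fit. The dashed line marks the size threshold of -1.5, and the hatched bar, Dppa5a on d3 at -1.13, was not called.

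Of the 7 pluripotency markers 4 were lower in G+ cells on d3, 4 on d4 and 6 on d5. Among all genes 1.07%, 1.41% and 1.11% were called lower on these days. The mean level of the 7 markers lay between 11.13 and 11.68 in d3 G- and between 9.41 and 9.69 in d3 G+ cells, and between 10.90 and 11.02 in d4 G- and between 8.52 and 9.32 in d4 G+ cells. It lay between 9.97 and 10.64 in d5 G-, 8.13 and 9.11 in d5 Glow and 7.68 and 8.22 in d5 Ghigh cells, and all 7 were well above background in each of these populations. Their part in the differences of the Dppa genes was not tested.

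Whether the gap between G+ and G- cells changed with time was tested as a difference of differences. From d3 to d4 no member was called, 0% of all genes were, and no member had an unadjusted limma p under 0.05. From d3 to d5 no member was called either, although 2 of 4 had an unadjusted limma p under 0.05, with 0.211% of all genes called in either direction. The G+ minus G- difference of Dppa5a changed by -1.57 on the log2 scale, a widening (SE 0.55, adjusted p = 0.399), and that of Dppa2 by 0.63, a narrowing (SE 0.30, adjusted p = 0.711).

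Within GSC-positive cells the members were also compared by reporter level. Between d5 Ghigh and Glow cells no member was called, with 0.251% of all genes called in either direction and 1 member, Dppa4, at an unadjusted limma p under 0.05 (-0.73, SE 0.27, adjusted p = 0.338). Between d6 G+H+ and G+H- cells no member was called, as 0% of all genes were, and no member had an unadjusted limma p under 0.05. Dppa5a differed there by 0.56 (SE 0.42, adjusted p = 1), Dppa3 by -0.50, Dppa4 by -0.18 and Dppa2 by -0.14.

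Single steps along the GSC-positive course were tested in turn. From d2 to d3 G+ all 4 members fell, with 2.68% of all genes called lower. Dppa4 fell by 3.44 (SE 0.27, adjusted p = 2.32e-11), Dppa2 fell by 3.36 (SE 0.23, adjusted p = 6.55e-13), Dppa3 fell by 2.3 (SE 0.57, adjusted p = 0.00392) and Dppa5a fell by 1.94 (SE 0.42, adjusted p = 0.000934). The Dppa3 step was no longer called without d2 replicate 1, d2 replicate 2, d3 G+ replicate 2 or d3 G+ replicate 3, at -2.41 to -2.03. No member was called from d3 G+ to d4 G+, or from d4 G+ to d5 Glow or to d5 Ghigh. Of all genes 0.0135%, 0.0449% and 0.413% were called lower there. At an unadjusted limma p under 0.05 there were 3, 2 and 3 of 4 members. From d4 G+ to d5 Ghigh Dppa5a differed by -1.53 (SE 0.42, adjusted p = 0.0311). Dppa2 differed by -1.23 (SE 0.23, adjusted p = 0.000978), under the size threshold. From d5 Ghigh to d6 G+H- cells Dppa2 and Dppa5a fell again, with 0.754% of all genes called lower. Dppa5a fell by 1.86 (SE 0.42, adjusted p = 0.00387). Dppa2, which was not well above background on d6, was at least 2.71-fold lower by the probe used (means 4.62 and 6.26, adjusted p = 1.35e-05). By its dimmer probe it was at least 1.29-fold lower and was not called (-0.62, SE 0.24, adjusted p = 0.135). The fitted Dppa2 difference was under the size threshold with a background offset of 50 (-0.87), with no background correction (-1.16) and over the mean of both probes (-1.13). The Dppa5a step lost its call without d5 Ghigh replicate 1 or 2 or d6 G+H- replicate 1 or 2, at -1.90 to -1.48. Over the same step Dppa3 differed by 0.48 (SE 0.57, adjusted p = 0.835) and Dppa4 by -0.74 (SE 0.27, adjusted p = 0.119).

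The other probes of Dppa2 and Dppa4 gave the same direction with smaller sizes at d6. For d6 G+H+ against ESC the dimmer Dppa2 probe, which was not well above background on any G+H+ array either, was at least 24.1-fold lower (adjusted p = 2.88e-17). The Dppa4 probe next in brightness fell by 5.90 (SE 0.24, adjusted p = 6.23e-19). The dimmest Dppa4 probe, which averaged 7.63 in ESCs, fell by 2.65 (SE 0.22, adjusted p = 1.01e-11). On d3 that probe differed between G+ and G- cells by -1.16 (SE 0.22, adjusted p = 0.000667), under the size threshold, where the other pair of Dppa4 probes were called.

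The EPZ6438 series asks whether inhibition of EZH2, before or during differentiation, changes the genes at d6. No member was called in ADE_EPZ against Control, where 2.65% of all genes were called in either direction, and 2 of 4, Dppa3 and Dppa5a, had an unadjusted limma p under 0.05. No member was called in ES_EPZ against Control, where 0.404% of all genes were called, and none had an unadjusted limma p under 0.05. Nor was any called in ADE_EPZ against ES_EPZ, where 0.121% of all genes were called in either direction. There 3 of 4, Dppa2, Dppa4 and Dppa5a, had an unadjusted limma p under 0.05.

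Dppa5a came nearest to a call. It read 11.85, 11.05 and 12.38 in Control, 13.07, 13.47 and 13.26 in ADE_EPZ and 12.17, 11.07 and 12.64 in ES_EPZ. All 3 ADE_EPZ arrays were above all Control and all ES_EPZ arrays, and ES_EPZ overlapped with Control. The difference between ADE_EPZ and Control was 1.51 (SE 0.42, 2.84-fold, adjusted p = 0.0153), which passed the size threshold but not the p threshold. It passed both with slide as a random block (1.51, adjusted p = 0.00913) and with the replicate number as a block (adjusted p = 0.00989), but not with slide as a fixed block (adjusted p = 0.0199). Within the 3 slides, which each held 1 array per regimen, ADE_EPZ minus Control was 1.62, 2.21 and 0.70. On each slide the Control array carried another replicate number than the ADE_EPZ and ES_EPZ arrays, so these are not differences within a replicate. Against ES_EPZ, with 0.121% of all genes called in either direction, ADE_EPZ was higher by 1.31 (SE 0.42, adjusted p = 0.182), and ES_EPZ differed from Control by 0.20 (SE 0.42, adjusted p = 0.939). Among the markers of pluripotent cells 1 of 7, Zfp42, was called higher in ADE_EPZ (log2 fold change 1.51, SE 0.34, adjusted p = 0.00231), with 1.88% of all genes called higher. The mean level of the 7 lay between 7.90 and 8.23 in Control, 8.47 and 8.87 in ADE_EPZ and 7.74 and 8.66 in ES_EPZ. All 7 were well above background in each regimen. The mean level of 9 mesendoderm and endoderm markers lay between 11.61 and 11.99 in Control and between 12.44 and 12.85 in ADE_EPZ, and that of 8 mesoderm markers between 8.87 and 8.96 and between 7.37 and 7.95. The part of these cells in the Dppa5a difference was not tested.

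Dppa3 read 3.57, 5.66 and 6.09 in Control, 6.80, 6.29 and 6.34 in ADE_EPZ and 6.09, 5.12 and 6.53 in ES_EPZ. The ADE_EPZ arrays were again above all Control arrays, but Control replicate 1 was far below the other two. The difference was 1.37 (SE 0.57, adjusted p = 0.141), and it was 0.60 (SE 0.57, adjusted p = 0.714) without Control replicate 1. The place of that array turned on the processing. With the scanner software's processed signal scaled to the 75th percentile of each array, Control read -2.15, -3.49 and -2.97 and ADE_EPZ -1.64, -2.15 and -2.34, so that replicate 1 became the highest Control array, and the difference was 0.82 (SE 0.86, adjusted p = 0.832).

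Neither Dppa2 nor Dppa4 came near a call against Control. Dppa2 read 5.17, 5.26 and 5.50 in Control, 5.25, 5.84 and 5.29 in ADE_EPZ and 4.91, 4.78 and 5.24 in ES_EPZ, and was well above background on 2 of 3 Control, 2 of 3 ADE_EPZ and no ES_EPZ arrays. Dppa4 read 6.20, 6.08 and 6.59 in Control, 6.45, 7 and 6.67 in ADE_EPZ and 6.11, 5.82 and 6.51 in ES_EPZ, well above background on all of them. For ADE_EPZ against Control, Dppa2 differed by 0.15 (SE 0.23, adjusted p = 0.843) and Dppa4 by 0.42 (SE 0.27, adjusted p = 0.457). For ES_EPZ against Control the values were -0.33 (SE 0.23, adjusted p = 0.638) and -0.15 (SE 0.27, adjusted p = 0.927). The 2 comparisons with Control share its arrays. For ADE_EPZ against ES_EPZ Dppa2 differed by 0.49 (SE 0.23, adjusted p = 0.524) and Dppa4 by 0.56 (SE 0.27, adjusted p = 0.548).

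**Figure D4:**
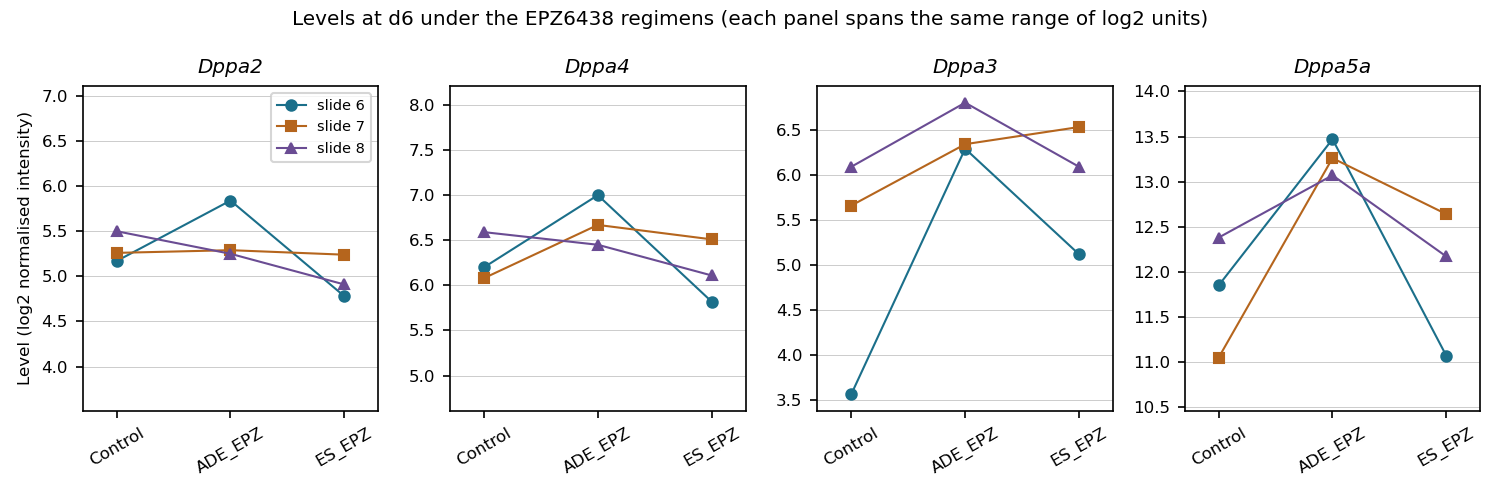
Levels (log2 normalised intensity) at d6 under the 3 regimens, with 1 line per slide joining its Control, ADE_EPZ and ES_EPZ arrays. Lines do not join replicates, since the Control array of a slide carried another replicate number than its ADE_EPZ and ES_EPZ arrays. For Dppa5a every slide rises from Control to ADE_EPZ, by 0.70 to 2.21, and for Dppa3 the low Control value of 3.57 on slide 6 stands apart from the others.

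The genes beside the members on the chromosome were read in the same arrays. By the order of genes in the RefSeq table, Dppa4 and Dppa2 are adjacent, followed by Gm5485 and by Morc1, which encodes a germline chromatin protein that silences transposons. In d6 G+H+ cells the Morc1 probe was well above background on 0 of 3 arrays, and Morc1 was at least 71.7-fold lower than in ESC (means 4.60 and 11.13, adjusted p = 1.52e-16). It fell by 4.58 in d5 G- cells against ESC (SE 0.34, adjusted p = 4.47e-12) and fell by 3.38 in d3 G+ against G- cells (SE 0.34, adjusted p = 2.73e-08). The adhesion gene Nectin3, on the other side of Dppa4, fell by 2.33 by d6 (SE 0.19, adjusted p = 1.24e-11) but was not called on d3 (-0.68, SE 0.19, adjusted p = 0.0337). Cd96, Gm5485 and Trat1 were not well above background on any ESC array and were not called.

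Dppa3 lies between Gdf3, a TGF-beta family ligand, and the pluripotency factor Nanog, with Apobec1 beyond Gdf3. In d6 G+H+ cells against ESC Gdf3 fell by 5.97 (SE 0.52, adjusted p = 3.8e-11), Nanog fell by 5.18 (SE 0.36, adjusted p = 1.85e-13) and Apobec1 fell by 3.57 (SE 0.26, adjusted p = 7.61e-13). In d3 G+ against G- cells Gdf3 fell by 3.66 (SE 0.52, adjusted p = 1.29e-05) and Apobec1 fell by 1.89 (SE 0.26, adjusted p = 8.77e-06), as for Dppa3, but Nanog differed by -0.61 (SE 0.36, adjusted p = 0.57). Slc2a3 and Foxj2, beyond Nanog, were called in neither comparison. Around Dppa5a, Ddx43, a germline RNA helicase, fell by 2.20 by d6 (SE 0.43, adjusted p = 0.000123), whereas Ooep (-1.19, adjusted p = 8.57e-05) and Cgas (-1.09, adjusted p = 0.000117) stayed under the size threshold and Omt2a, Omt2b and Gsta2 were not well above background on any ESC array.

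**Figure D5:**
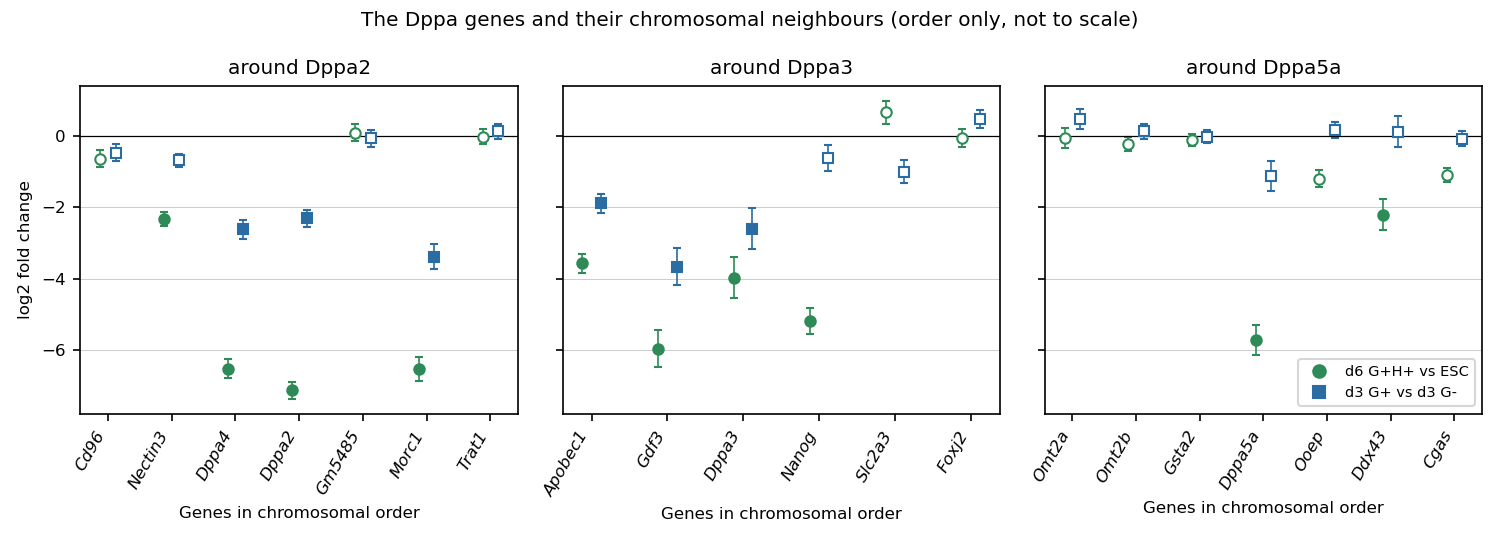
log2 fold change of Dppa2, Dppa3 and Dppa5a and of up to 3 genes with a probe on each side, in chromosomal order and not to scale, for d6 G+H+ against ESC (green circles) and d3 G+ against d3 G- (blue squares). Bars are the SE of the limma fit and filled symbols were called. The d6 symbols of Dppa2 and Morc1 are fitted values of probes not well above background on any G+H+ array, where Dppa2 is at least 100-fold and Morc1 at least 71.7-fold lower, and Nanog, next to Dppa3, falls by d6 (-5.18) and was not called between d3 G+ and G- cells (-0.61).

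The genes whose course was most like each member were ranked by Pearson correlation of the means of the 11 untreated populations over 15981 candidate genes, as a description, since the points share slides and normalisation. For Dppa2 they were E2f8 (r = 0.9951), Jade1 (0.9935), Rif1 (0.9929), Tmem59l (0.9912) and Rps4l (0.9909). For Dppa4 they were Phc1 (0.9963), Rif1 (0.9934), Syt9 (0.9932), Tcf15 (0.9925) and Nqo1 (0.9925). Rif1, a regulator of replication timing, stood in both lists. For Dppa5a they were Pigp (0.9935), Etv5 (0.9909), Bax (0.9899), Cbr3 (0.9858) and Alox5 (0.9842). For Dppa3 the highest values were lower, with Ramp3 (0.9806), Slc27a2 (0.9728), 9930012K11Rik (0.9704), Nrsn1 (0.9701) and Mpv17l (0.9669). The ranks moved with the measure. By correlation over the 33 single arrays Pigp remained the first for Dppa5a, but E2f8 was 9 for Dppa2, Phc1 91 for Dppa4 and Ramp3 43 for Dppa3, where Mpv17l was 1. Among the members themselves Dppa3 was the least like the others, with r between 0.835 and 0.91, against 0.965 to 0.986 among the other three.

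Other genes of the pathways in which the members act were read from lists. In d6 G+H+ cells against ESC, 13 of 21 genes of a pluripotency list of the study, which is therefore no independent evidence of a direction, were lower and 1 was higher, with a fitted median of -4.68, while the median over all genes was 0. Among all genes 5.16% were called lower and 5.58% higher. In d5 G- cells 12 of 21 were lower, with a list median of -2.02 and 2.13% of all genes called lower. Between G+ and G- cells 7 of 21 were lower on d3 and 7 on d4, and 8 on d5, when 1.07%, 1.41% and 1.11% of all genes were. Among those called lower on d3 were Klf2 (-3.19, SE 0.42), Sox2 (-2.42, SE 0.25) and Esrrb (-2.66, SE 0.56), all transcription factors of the pluripotency network, and Tbx3 was called higher (4.10, SE 0.71). Pou5f1 was not called on d3, while it fell by 5.91 in d6 G+H+ cells (SE 0.63, adjusted p = 3.26e-09). In ADE_EPZ against Control Zfp42 and Krt42 were called higher and Tbx3 lower, with a list median of 0.75. Of all genes 1.88% were called higher and 0.772% lower there.

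Of 7 genes of the formative and primed epiblast, 5 were higher and 1 lower in d6 G+H+ cells against ESC, where 5.58% of all genes were called higher and 5.16% lower, with a median of 2.13. Between G+ and G- cells 1 of the 7 was lower on each of d3, d4 and d5, where 1.07%, 1.41% and 1.11% of all genes were.

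Of 9 genes that set, maintain or remove DNA methylation, the process in which Dppa3 acts, 2 were lower and 1 higher in d6 G+H+ cells against ESC. In that comparison 5.16% of all genes were called lower and 5.58% higher. Dnmt3l, a cofactor of de novo methylation, fell by 7.66 (SE 0.37, adjusted p = 3.13e-17), Tet1, which oxidises methylcytosine, fell by 3.29 (SE 0.24, adjusted p = 3.8e-13), and the de novo methyltransferase Dnmt3b rose by 1.62 (SE 0.21, adjusted p = 1.02e-07). On d3, 1 of the 9, Dnmt3l, was called between G+ and G- cells, where it fell by 3.34 (SE 0.37, adjusted p = 1.98e-07). Of all genes 1.07% were called lower there. Uhrf1 and Dnmt1 were called in neither comparison.

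The list of genes whose promoters Dppa2 and Dppa4 are known to bind held only 2, Syce1 and Nkx2-5, and is no survey of bound promoters. Syce1, a component of the meiotic synaptonemal complex, was at least 28.6-fold lower in d6 G+H+ cells than in ESC (means 4.98 and 9.87, adjusted p = 2.74e-15). No d6 G+H+ array had Syce1 well above background. It fell by 2.21 in d3 G+ against G- cells (SE 0.29, adjusted p = 2.79e-06). Nkx2-5 was called in neither comparison. Of 17 measured genes of zygotic genome activation, the programme that Dppa2 and Dppa4 help to switch on, 1 was lower in d6 G+H+ cells, Zscan4f (at least 2.75-fold, adjusted p = 0.002), and 1 was higher, Tcstv3 (at least 4.43-fold, adjusted p = 0.00136), with a median of -0.09. Each was dim on all arrays of the lower group, and 1 of 17 in each direction is near the share of all genes, 5.16% lower and 5.58% higher. In ESCs 8 of the 17 were not well above background on any array, and several of these genes have near-identical copies whose signals a probe may share.

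Of 9 primordial germ cell genes, a cell type marked by Dppa3, 4 were lower and 2 higher in d6 G+H+ cells against ESC. Beside them 5.16% of all genes were called lower and 5.58% higher. Prdm14, well above background on 0 of 3 G+H+ arrays, was at least 19.7-fold lower, Alpl fell by 3.70 (SE 0.42), Ddx4 fell by 3.00 (SE 0.28) and Ifitm3 fell by 2.52 (SE 0.36), while Kit rose by 2.49 (SE 0.34) and Prdm1, which is also an endoderm gene, by 2.28 (SE 0.28). Of 9 KH domain relatives of Dppa5a and their partners in the maternal complex of the oocyte, 2 were lower, beside 5.16% of all genes. Both were well above background on 0 of 3 G+H+ arrays. Khdc3 was at least 24.7-fold lower (adjusted p = 2.74e-16) and Nlrp5 at least 3.81-fold lower (adjusted p = 1.07e-09), while Tle6 was higher by 2.20 (SE 0.35, adjusted p = 5.06e-06). Khdc3 fell by 4.41 already in d5 G- cells (SE 0.26, adjusted p = 3.18e-14), where Dppa5a fell by 1.68.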

How the data were processed

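RNA was hybridised to 42 single-colour Agilent mouse arrays. The authors extracted median foreground and background intensity values with the scanner software, corrected them (normexp), normalised all arrays by quantiles and deposited log2 values per spot. Spots of a probe were averaged here. Recomputing these steps from the deposited intensity values gave correlations of at least 0.999979 with the deposited log2 values of each array. Correlation does not test scale or centring. The recomputed mean of Dppa5a in ESCs was 16.78 and the deposited mean 16.69. The authors' genome build does not bear on probe levels.

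Genes were named through RefSeq accessions, of which 21865 of 23171 had a symbol. No sequence of the members was used here. The members, lists and tests were chosen with earlier results of these data known. Genes named are the members, the 3 genes with a probe on each side, the 5 most alike, and list genes that passed or were needed to describe a list. Of the neighbours, 1 is not reported here.

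Group means were fitted with limma 3.58.1 in R 4.3.3 over all 42 arrays, with p-values adjusted over 55681 probes, for 28 comparisons. With 3 arrays per group their number limits the precision. An at-least fold sets the brighter group's mean against, on each array, the dimmest signal well above background or the probe's own value if higher. It holds only for the probe and processing used. On simulated data, with 200 genes given a log2 change of 2.5, the fit recovered 197 for d3 G+ against G-, and 195 for ADE_EPZ against Control, among 22278 genes. A change of 2.5 is larger than any member difference that the main fit did not call. The recovery therefore does not say how often changes of those smaller sizes would be found. The alternatives tried were other background corrections, scalings, filters, sample sets, probe summaries, blocks for slide or replicate number, and leaving out single arrays.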

Additional observations from a re-analysis of the deposited data

How the results depend on the processing

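Of the 24 differences of the 4 members in 6 comparisons (d6 G+H+ against ESC, G+ against G- on d3, d4 and d5, and both EPZ6438 regimens against Control), 278 values under alternatives other than leaving out an array kept direction and call, and 10 did not. Dppa2 on d5 dropped under a threshold with a background offset of 50 (-1.33), no background correction (-1.45), only the compared arrays (-1.68, adjusted p = 0.0101) and the mean of all its probes (-1.33). Dppa2 on d4 did so under 75th percentile scaling (-2.12, adjusted p = 0.0102), and Dppa3 on d3 with only the compared arrays (-2.6). Dppa3 in ES_EPZ turned sign with no background correction (-0.19) and under 75th percentile scaling (-0.2). Dppa5a in ADE_EPZ became called with slide as a random block (1.51). The fitted sizes of d6 G+H+ against ESC moved over all settings, arrays left out included, while their calls held. They ran from -9.96 to -5.71 for Dppa2 and from -8.11 to -5.03 for Dppa4. For Dppa3 they ran from -6.34 to -2.90 and for Dppa5a from -6.26 to -5.17. The main fit did not pair arrays by replicate number. In the untreated series same-numbered arrays of different groups correlated with a median of 0.2 (lowest -0.16), against a median of -0.13 for other numbers. In the EPZ6438 series these medians were 0.27 (lowest -0.03) and -0.16. Of the untreated arrays 22 of 33 correlated best with their own number, as did 8 of 9 in the EPZ6438 series, so some pairing by number is possible. With the replicate number as a block, Dppa5a in ADE_EPZ was called (1.51, adjusted p = 0.00989), and no other of the 24 calls changed. The cause of these shifts was not tested.

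Leaving out single arrays gave ranges of -3.09 to -2.33 for Dppa3 on d3, -2.09 to -1.87 for Dppa5a on d4, -2 to -1.49 for Dppa2 on d5, -0.15 to 0.65 for Dppa5a and -0.33 to 0.02 for Dppa4 in ES_EPZ, and -0.04 to 0.26 for Dppa2 in ADE_EPZ. The other signs that turned belonged to uncalled differences near 0. Leaving out arrays, these were d2 against ESC for Dppa2 (-0.07 to 0.2) and Dppa5a (-0.08 to 0.13), G- against ESC for Dppa3 on d3 (-1.34 to 0.06), d4 (-0.92 to 0.47) and d5 (-1.35 to 0.04), d4 G- against d3 G- for Dppa3 (-0.07 to 0.67) and Dppa5a (-0.49 to 0.16), d5 G- against d4 G- for Dppa3 (-0.74 to 0.17), d5 Glow against d4 G+ for Dppa3 (-0.02 to 0.3), d5 Ghigh against Glow for Dppa5a (-0.33 to 0.05), d6 G+H- against d5 Ghigh (-0.05 to 0.76) and d6 G+H+ against G+H- (-0.78 to 0.03) for Dppa3, and the change of the G+ to G- gap for Dppa3 from d3 to d5 (-1.02 to 0.06) and for Dppa4 from d3 to d4 (-0.39 to 0.24) and to d5 (-0.26 to 0.37). Under other settings they were the Dppa4 gap change from d3 to d4 with an offset of 50 (0.1), no background correction (0.06), slide as a fixed (0.08) or random block (0.03) and the mean of all probes (0.03), its change to d5 under 75th percentile scaling (-0.18), Dppa2 in d6 G+H+ against G+H- under 75th percentile scaling (0.08), and Dppa5a in d2 against ESC with slide as a fixed (-0.04) or random block (-0.01).

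The count of all genes called moved most for ES_EPZ against Control, from 77 higher and 13 lower to 0 and 0 with only the compared arrays, 15 and 2 with only its own series, 40 and 4 under 75th percentile scaling, 130 and 31 with slide as a random block, 114 and 29 with the replicate block, and between 11 and 2 (without ES_EPZ replicate 3) and 174 and 40 (without ES_EPZ replicate 2) over the arrays left out. On d5, G+ against G- went from 113 higher and 248 lower to 31 and 103 with only the compared arrays, and on d3 from 150 and 239 to 110 and 140. Signal over background limits Dppa2 and Dppa3 in the late GSC-positive populations.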

Other observations

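The d6 cells of the EPZ6438 series and the d6 sorted populations of the untreated series were on separate slides and are set side by side without a comparison. Dppa4 averaged 6.29 in Control cells, 5.30 in G+H- cells and 5.12 in G+H+ cells. Dppa2 averaged 5.31 in Control cells, 4.62 in G+H- cells and 4.48 in G+H+ cells. Dppa5a averaged 11.76 in Control cells, 10.40 in G+H- cells and 10.96 in G+H+ cells. Dppa3 averaged 5.10 in Control cells, between its means of 5.43 in G+H- cells and 4.93 in G+H+ cells. Whether the EPZ6438 series was sorted is not known here, and series, slide and any sort cannot be told apart in these values.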
